A study of Mus musculus with 4 samples.

Results

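Endothelial cells line blood and lymph vessels, and this account follows 34 of their characteristic genes through RNA-seq libraries of the embryonic mouse gonad. The genes were taken from a list of symbols, with no threshold on their values, but the list was drawn up with earlier results of these libraries known. All 34 were found, by Ensembl identifier, among the 53715 genes of the count table, and 33 of them had enough counts to be tested among 15466 tested genes. The libraries were made from cells of C57BL/6 mouse embryos at E12.5 that the labels name primordial germ cells, from which the gametes arise. The cells had been enriched with magnetic beads (MACS), and 1000 of them went into each library of a modified Smart-seq2, which copies whole transcripts from few cells, finished with Tn5 transposase. A pair of libraries carries the label wild type (WT 1 and WT 2) and a pair the label Rif1 knock out (Rif1_KO 1 and Rif1_KO 2). Rif1 encodes a chromatin protein of replication timing and break repair. The labels do not say how the gene was disrupted, which surface marker the beads took, or whether the libraries of a pair came from separate embryos, so the p-values measure a spread between libraries that may be technical.

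Endothelial identity rests on ETS and SOX transcription factors such as Erg, Fli1, Sox7, Sox17 and Sox18, which drive genes for cell junctions and for growth factor receptors. VEGF acts through the receptors Kdr, Flt1 and Flt4 with the co-receptor Nrp1, angiopoietins act through Tek with its partner Tie1, and Dll4 signals through Notch in arterial and sprouting cells. The gonad at this stage holds growing vessels, so endothelial cells lie close to the germ cells.

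The 250 bases before the transcription start are printed for 4 genes on which the results below turn. Klf2 was the gene with the smallest p, Cldn5 and Eng had the smallest p among the genes with lower values under the label Rif1_KO, and Emcn was abundant in every library. Capitals mark AGGAAG and the related CGGAAG, forms of the ETS recognition sequence, and AACAAT, a form of the SOX recognition sequence, each searched on both strands. The ETS forms differ in their first base, so 1 position cannot hold both. The sequences are those of RefSeq on GRCm38.p6, written 5′ to 3′ on the strand of the gene, which is the plus strand for all 4.
Klf2, chr8:72318812-72319061: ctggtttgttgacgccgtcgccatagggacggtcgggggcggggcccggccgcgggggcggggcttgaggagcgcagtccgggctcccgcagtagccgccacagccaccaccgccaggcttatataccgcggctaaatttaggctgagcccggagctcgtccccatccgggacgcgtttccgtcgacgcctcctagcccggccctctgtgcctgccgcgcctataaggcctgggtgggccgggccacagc
Cldn5, chr16:18776597-18776846: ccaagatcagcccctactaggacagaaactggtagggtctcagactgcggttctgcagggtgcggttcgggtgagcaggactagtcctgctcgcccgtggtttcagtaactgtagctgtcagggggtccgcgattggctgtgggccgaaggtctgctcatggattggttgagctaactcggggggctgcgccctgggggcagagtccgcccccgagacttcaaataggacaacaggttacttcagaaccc
Eng, chr2:32646345-32646594: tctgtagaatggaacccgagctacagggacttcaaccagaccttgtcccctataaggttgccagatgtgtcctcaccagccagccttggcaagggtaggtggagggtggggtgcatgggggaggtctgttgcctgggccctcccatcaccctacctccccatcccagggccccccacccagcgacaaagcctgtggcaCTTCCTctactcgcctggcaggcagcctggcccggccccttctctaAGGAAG
Emcn, chr3:137340828-137341077: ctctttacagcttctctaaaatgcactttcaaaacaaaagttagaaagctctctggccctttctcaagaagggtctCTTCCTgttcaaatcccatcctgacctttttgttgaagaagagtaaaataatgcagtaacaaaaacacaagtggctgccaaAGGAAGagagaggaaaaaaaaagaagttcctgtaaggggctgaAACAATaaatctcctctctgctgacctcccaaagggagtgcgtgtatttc
In these windows Eng holds AGGAAG once on each strand, Emcn holds AGGAAG once on each strand and AACAAT once, and Klf2 and Cldn5 hold none of the 3 motifs. RefSeq promoters were at hand for 17 of the 34 genes, with 21 start sites between them. AGGAAG stood in 12 of these 21 windows (57.1%) and in 29.5% of all 32851 promoter windows of the same length. CGGAAG stood in 1 of the 21 (4.76%, against 13.6% of all windows), and AACAAT in 3 (14.3%, against 9.42%). A match is a description of letters, and the counts of RNA do not bear on whether a factor is bound there.

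The libraries held 11724630 to 14421298 counts, and 13314 to 16211 genes reached 10 counts. Rif1 was higher, not lower, in the libraries labelled Rif1_KO, at 86.2 and 63.9 CPM against 43.7 and 4.73 CPM in WT 1 and WT 2 (CPM, counts scaled to a common library total with TMM, edgeR's factors for differences in composition). The counts of the gene named in the label thus show no loss of its RNA (log2 fold change 1.63, SE 1.01, edgeR adjusted p = 0.717). Whether the labels are right was not tested, and higher or lower below always means between labels. Defining markers of germ cells were low in most libraries: Pou5f1 was at 0.301 to 1.2 CPM in all 4, and the summed level of 6 markers was 429 CPM in WT 2 and 12.4 to 34.6 CPM in the others. Erythroid markers were at 137000 and 112000 CPM under the label WT and at 9780 and 4260 CPM under the label Rif1_KO.

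Endothelial genes were present in all 4 libraries. Their summed level differed more between the 2 libraries of each label than between the means of the labels. The 34 genes together had 823 CPM in WT 1, 332 CPM in WT 2, 249 CPM in Rif1_KO 1 and 482 CPM in Rif1_KO 2. WT 1 stood highest and Rif1_KO 1 lowest, and the pairs overlapped. The means were 577 ± 347 CPM for WT and 366 ± 165 CPM for Rif1_KO (SD, n = 2 each). As a share of all deposited counts the genes took 0.0699% (95% Clopper-Pearson interval 0.0685 to 0.0714) in WT 1 and 0.0263% (0.0254 to 0.0273) in WT 2. The share was 0.0274% (0.0265 to 0.0283) in Rif1_KO 1 and 0.0631% (0.0618 to 0.0644) in Rif1_KO 2. By this measure WT 1 and Rif1_KO 2 were alike, and so were WT 2 and Rif1_KO 1. The means of the share were 0.0481 ± 0.0308% for WT and 0.0453 ± 0.0253% for Rif1_KO (SD, n = 2 each). The gap between the means of the labels therefore depends on the scaling. The intervals cover counting error only, because reads without molecular identifiers are not independent molecules. These sums were not tested, since the smallest p that exact two-sided permutation allows for 2 libraries against 2 is 0.333. In such bulk libraries fewer endothelial cells and less RNA per endothelial cell cannot be told apart.

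**Figure D1:**
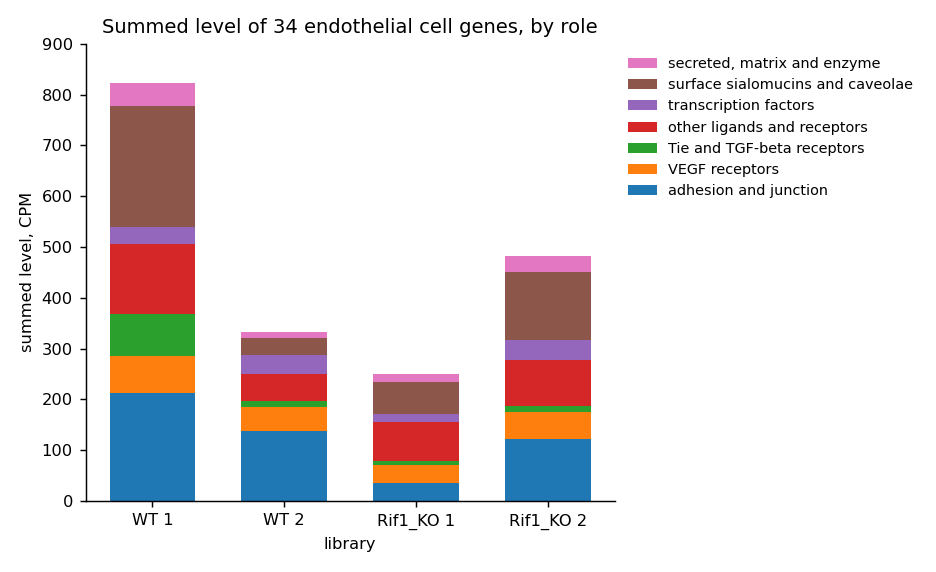
Summed level of the 34 endothelial cell genes in each library, in CPM, with the bars divided by the role of the genes; each bar is 1 library. WT 1 reaches 823 CPM and Rif1_KO 2 reaches 482 CPM, while WT 2 and Rif1_KO 1 reach 332 and 249 CPM.

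None of the 33 tested genes passed the test between the labels. edgeR's quasi-likelihood test with Benjamini-Hochberg adjustment over all genes called 0 of them at an adjusted p under 0.05, where it called 0.0129% of all tested genes. DESeq2 also called 0 of the 33, against 3.37% of all tested genes, and limma-voom called 0, against 0.0129%. Erg got no adjusted p from DESeq2, so it counts as not called there. At an unadjusted p under 0.05 edgeR gave 1 member, Klf2 (3.03% of the members), where 8.41% of all tested genes reached it. That member was on the higher side, where 5.35% of all genes lay, and 0 were on the lower side, where 3.05% lay. The CPM values of the pairs did not overlap for 10 of the 33 genes (30.3%), while 39.4% of all tested genes had pairs that did not overlap. Of these 10, 3 were higher under the label Rif1_KO (21% of all tested genes were), and 7 were lower (18.4% of all tested genes were). Fitted values lay below 0 for 23 of the 33, and for 53.9% of all tested genes. That count of 23 was 19 with upper-quartile factors or limma-voom and 25 with DESeq2. It was 13 without WT 1 and 26 without Rif1_KO 2. Their median log2 fold change was -0.49, against -0.11 for all tested genes.

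**Figure D2:**
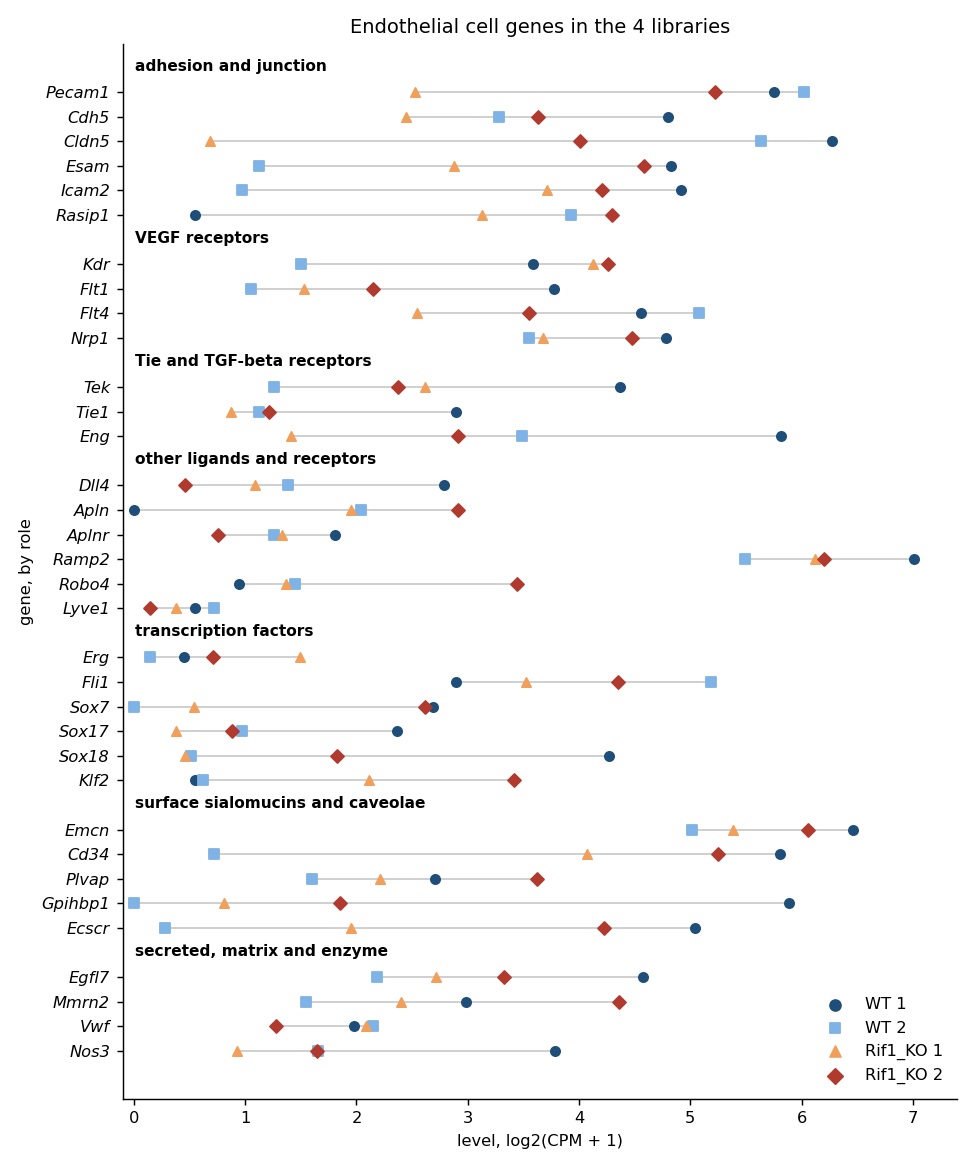
Level of each of the 34 genes in each library, on the scale log2(CPM + 1), grouped by role; each point is 1 library and the grey line spans the 4. WT 1 is the highest point for 21 of the 33 tested genes, and for Klf2 both Rif1_KO points lie above both WT points.

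Among the 6 junction genes the pairs did not overlap for Cldn5 and Pecam1, and Rif1_KO 1 was the lowest library for both. Cldn5 encodes a claudin of endothelial tight junctions (ENSMUSG00000041378.1, chromosome 16, 18776847 to 18778260, mm10). It had 76.1 CPM in WT 1, 48.8 CPM in WT 2, 0.603 CPM in Rif1_KO 1 and 15.1 CPM in Rif1_KO 2. Both WT values lay above both Rif1_KO values, and the Rif1_KO pair was itself 25.0-fold apart, on 8 and 285 counts. The log2 fold change was -2.99 (SE 1.39) with an edgeR adjusted p of 0.626. Without WT 2 it was -3.27, and Cldn5 was then called (edgeR adjusted p = 0.00297); such a fit takes its spread from the Rif1_KO pair alone. With any other library left out it was not called, and it was -1.97 without Rif1_KO 1 and -6.63 without Rif1_KO 2. Pecam1, an adhesion molecule of the endothelial surface that platelets and leukocytes also carry (chromosome 11, 106654217 to 106750628), had 53.0 and 64 CPM in the WT pair and 4.75 and 36.4 CPM in the Rif1_KO pair. Its pairs did not overlap either, with a log2 fold change of -1.51 (SE 1.02, edgeR adjusted p = 0.747). These 2 genes were the ones whose WT libraries lay closest together in this group, 1.56-fold apart for Cldn5 and 1.21-fold for Pecam1.

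The other junction genes overlapped between the labels and were scattered within them. Cdh5, the VE-cadherin of adherens junctions, had 26.8 and 8.71 CPM in WT 1 and WT 2 and 4.45 and 11.4 CPM in Rif1_KO 1 and Rif1_KO 2. Esam, a tight junction adhesion molecule, had 27.3 and 1.18 CPM against 6.33 and 23.0 CPM, and Icam2, a ligand of leukocyte integrins, 29.1 and 0.967 CPM against 12.1 and 17.5 CPM. WT 1 was the highest and WT 2 the lowest library for both Esam and Icam2, with WT values 23.1-fold and 30.1-fold apart. Their log2 fold changes were 0.05 (SE 1.6) and -0.03 (SE 1.57), and the sign changed with the scaling: Esam was at -0.04 with RLE factors (those of DESeq2) and Icam2 at 0.25 with upper-quartile factors. Rasip1, a regulator of vessel lumen formation, went the other way within the WT label, at 0.461 CPM in WT 1 and 14.2 CPM in WT 2, with 7.76 and 18.7 CPM in the Rif1_KO pair. Its count is uncertain, because 20.4% of its exon length is shared with Izumo1 on the same strand and 15.6% with the antisense gene A030001D20Rik. The latter had 8, 128, 85 and 311 counts beside 5, 132, 103 and 353 for Rasip1. The reads were counted for every gene they overlap and without regard to strand.

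The VEGF receptors did not move together. Kdr, the main signalling receptor for VEGF-A, was higher under the label Rif1_KO, with 11.0 and 1.83 CPM in WT 1 and WT 2 and 16.5 and 18.2 CPM in Rif1_KO 1 and Rif1_KO 2. The pairs did not overlap, although WT 2 lay further from WT 1 than WT 1 lay from the Rif1_KO libraries, and the log2 fold change of 1.44 (SE 1.37) was not called (edgeR adjusted p = 0.827). Flt4, the receptor for VEGF-C, was lower, with 22.6 and 32.7 CPM against 4.82 and 10.7 CPM, again without overlap (log2 fold change -1.83, SE 1.12, edgeR adjusted p = 0.711). Flt1, a high-affinity receptor that also acts as a VEGF sink, had 12.7 and 1.07 CPM against 1.88 and 3.44 CPM, so that both Rif1_KO values lay between the WT values. Nrp1, a co-receptor that mesenchymal cells also express, had 26.5 and 10.7 CPM against 11.8 and 21.3 CPM. Per kilobase of exon, the scale for comparing genes, Flt4 was the highest of the 3 kinase receptors in both WT libraries, at 2.74 and 3.97 CPM per kilobase, and Kdr in both Rif1_KO libraries, at 1.83 and 2.02.

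Eng was the gene of the angiopoietin and TGF-beta receptors with the widest gap between the labels. Eng encodes endoglin, a co-receptor for BMP9 and BMP10 (ENSMUSG00000026814.16, chromosome 2, 32646595 to 32682669). Its level was 55.4 CPM in WT 1, 10.2 CPM in WT 2, 1.66 CPM in Rif1_KO 1 and 6.51 CPM in Rif1_KO 2. Both Rif1_KO values were below both WT values, but WT 2 was nearer to Rif1_KO 2 than to WT 1. The log2 fold change was -3.0 (SE 1.39, edgeR adjusted p = 0.626), and it was -3.75 without WT 2, where it was called (edgeR adjusted p = 0.00299). It was not called with any other library left out, and was -1.27 without WT 1 and -4.27 without Rif1_KO 2. Tek, the angiopoietin receptor, had 19.6 and 1.4 CPM against 5.12 and 4.18 CPM, and Tie1, its partner, 6.45 and 1.18 CPM against 0.829 and 1.32 CPM. For all 3 genes WT 1 was the highest library, and for Tek and Tie1 the pairs overlapped.

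Other ligands and receptors were low or uneven. Dll4, the Notch ligand of arterial and tip cells, had 5.9 and 1.61 CPM in the WT pair and 1.13 and 0.371 CPM in the Rif1_KO pair, from 64, 15, 15 and 7 counts (log2 fold change -2.32, SE 1.3, edgeR adjusted p = 0.686). Its pairs did not overlap. Of its exon length 5.56% is shared with the antisense model Gm14207, which had 123, 5, 3 and 2 counts. Apln, the peptide apelin of sprouting tip cells, had 0 counts in WT 1, 29 in WT 2, 38 in Rif1_KO 1 and 123 in Rif1_KO 2; WT 2 was at least 11.3-fold higher than WT 1 when WT 1 is set at its floor of 3 counts. Its receptor gene Aplnr lay between 0.689 and 2.49 CPM in all 4 libraries. Robo4, an endothelial guidance receptor, stood out in 1 library, with 9.85 CPM in Rif1_KO 2 and 0.921 to 1.72 CPM in the other 3. Lyve1, a hyaluronan receptor of lymphatic endothelium and some macrophages, had 2 to 6 counts in each library and was not tested.

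Ramp2, a partner of the adrenomedullin receptor, had the smallest standard error of the 33 tested genes, but its count is uncertain. It had 128 and 43.9 CPM in WT 1 and WT 2 and 68.7 and 72.5 CPM in Rif1_KO 1 and Rif1_KO 2, with a log2 fold change of -0.29 (SE 0.62, edgeR adjusted p = 0.944). The Rif1_KO values lay between the WT values. Of its annotated exon length, 33.4% is shared with Vps25, a neighbouring gene of the endosomal sorting machinery on the same strand, whose counts were 1099, 407, 848 and 1100 beside 1391, 408, 912 and 1368 for Ramp2. Reads in the shared part were counted for both, so the part of the Ramp2 level that comes from Vps25 cannot be told apart here. Without Ramp2, Rasip1, Sox17 and Nos3, the 4 genes that share 10% or more of their exon length with another gene (a setting chosen after the data were seen), the summed level was 677 and 271 CPM in the WT pair and 171 and 388 CPM in the Rif1_KO pair, in the same order of libraries. Smaller overlaps, each under 10% of the exon length, concern Nrp1, Eng, Dll4, Cd34, Ecscr and Egfl7.

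Transcription factors gave the smallest p of the list. Klf2 encodes a factor that endothelial cells raise under blood flow and that other cells also use (ENSMUSG00000055148.7, chromosome 8, 72319033 to 72321656). It had 0.461 CPM in WT 1 and 0.537 CPM in WT 2, from 5 counts in each, and 3.32 CPM in Rif1_KO 1 and 9.69 CPM in Rif1_KO 2, from 44 and 183 counts. Both Rif1_KO values exceeded both WT values, and the WT libraries were close together. The log2 fold change was 3.68 (SE 1.41) with an unadjusted p of 0.0356, which did not pass the adjustment (edgeR adjusted p = 0.577). With each library left out in turn it ranged from 2.76 to 4.34. Klf2 also responds to cell dissociation; 17 other genes of that response summed to 603 and 581 CPM in the WT pair and 441 and 540 CPM in the Rif1_KO pair, and their part in the Klf2 values was not tested.

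Among the ETS factors, Erg was barely detected. It had 4 and 1 counts in WT 1 and WT 2 and 24 and 12 counts in Rif1_KO 1 and Rif1_KO 2, or 0.368, 0.107, 1.81 and 0.636 CPM. The pairs did not overlap, and the log2 fold change of 2.28 (SE 1.09) was not called (edgeR adjusted p = 0.632). Fli1, an ETS factor that blood cells share, was much higher at 6.45 and 35.5 CPM against 10.5 and 19.4 CPM, with both Rif1_KO values between the WT values. Per kilobase of exon, Fli1 exceeded Erg in each library, at 1.85, 10.2, 3.0 and 5.56 CPM per kilobase against 0.106, 0.031, 0.522 and 0.183.

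The SOX factors, which can stand in for each other in vessel formation, were highest in WT 1. Sox18 had 18.3 CPM there and 0.43, 0.377 and 2.54 CPM in WT 2, Rif1_KO 1 and Rif1_KO 2. Sox7 had 5.44 CPM in WT 1 and 5.14 CPM in Rif1_KO 2, against 0 counts in WT 2 and 6 counts in Rif1_KO 1, so it followed the order of the shares of all counts rather than the labels. Sox17, a factor of arterial endothelium, had 4.15 and 0.967 CPM against 0.301 and 0.847 CPM, without overlap of the pairs but with 4 to 45 counts a library (log2 fold change -2.12, SE 1.19, edgeR adjusted p = 0.686). Of its exon length 16.8% is shared with an antisense model, Gm37587.

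Surface genes showed the largest differences between libraries of a label. Gpihbp1, which carries lipoprotein lipase across capillary endothelium (chromosome 15, 75596628 to 75599481), had 630 counts in WT 1 and 0 in WT 2, with 10 and 49 in Rif1_KO 1 and Rif1_KO 2. Its levels were 58.0, 0, 0.753 and 2.6 CPM, so WT 1 was at least 180-fold above WT 2 with WT 2 at its floor of 3 counts. Cd34, a sialomucin of endothelium and blood progenitors (chromosome 1, 194938819 to 194961279), had 54.9 CPM in WT 1 and 0.645 CPM in WT 2, a ratio of 85.1, and 15.8 and 36.9 CPM in the Rif1_KO pair. Neither gene separated the labels, since WT 2 lay below both Rif1_KO libraries and WT 1 above both. Left out in turn, each WT library decided the result: without WT 2 Gpihbp1 was called lower (log2 fold change -5.09, edgeR adjusted p = 3.86e-05), and without WT 1 Cd34 was called higher (log2 fold change 5.38, edgeR adjusted p = 0.00362).

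Ecscr, a modulator of endothelial migration, had 32 and 0.215 CPM in WT 1 and WT 2, from 347 and 2 counts, and 2.86 and 17.7 CPM in Rif1_KO 1 and Rif1_KO 2. It shares 3.69% of its exon length with the antisense gene 1700066B19Rik, which had 352, 6, 32 and 168 counts. Emcn, a sialomucin of venous and capillary endothelium, was present throughout, with 86.9 and 31.3 CPM against 40.7 and 65.6 CPM. Its log2 fold change of -0.15 (SE 0.69, edgeR adjusted p = 0.979) turned to 0.11 with upper-quartile factors. Plvap, which forms the diaphragms of fenestrated capillaries, had 5.53 and 2.04 CPM against 3.62 and 11.3 CPM, highest in Rif1_KO 2.

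The secreted, matrix and enzyme genes repeated this scatter. Egfl7, a secreted protein of growing vessels, had 22.8 and 3.55 CPM in the WT pair and 5.58 and 9.0 CPM in the Rif1_KO pair. Mmrn2, a matrix glycoprotein that binds VEGF-A, was highest in Rif1_KO 2, at 19.5 CPM against 1.93 to 6.91 CPM elsewhere. Nos3, the endothelial nitric oxide synthase, had 12.8 and 2.15 CPM against 0.904 and 2.12 CPM; WT 2 and Rif1_KO 2 are nearly equal here, although the pairs do not overlap in the strict sense, and 25.2% of its exon length is shared with an antisense model, Gm15587. Vwf, the clotting protein stored in endothelial granules, was low and even, from 1.43 to 3.44 CPM in the 4 libraries.

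Within each label 1 library held most of the endothelial counts. WT 1 exceeded WT 2 for 25 of the 33 tested genes (75.8%), while 48.2% of all tested genes were higher in WT 1. Rif1_KO 2 exceeded Rif1_KO 1 for 28 of the 33 (84.8%), against 50.1% of all tested genes. The WT values were 4-fold or more apart for 18 of the 33 (54.5%, against 36.5% of all tested genes), and the Rif1_KO values for 7 (21.2%, against 18.8%). The highest library was WT 1 for 21 genes (28.2% of all tested genes), WT 2 for 4 (29.6%), Rif1_KO 1 for 1 (23%) and Rif1_KO 2 for 7 (19.2%). The 4 genes highest in WT 2 were Pecam1, Flt4, Fli1 and Vwf, and the 1 gene highest in Rif1_KO 1 was Erg.

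**Figure D3:**
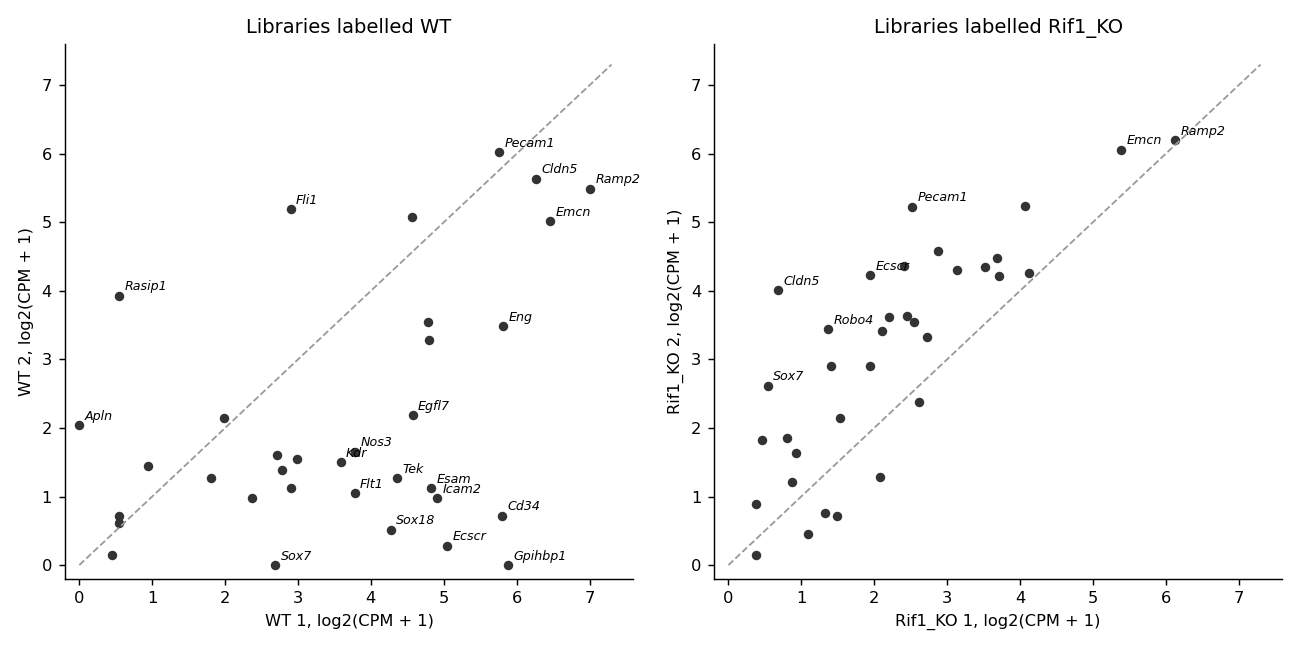
Levels of the 34 genes in the replicate libraries of each label, on the scale log2(CPM + 1), with the line of equal levels; each point is 1 gene, and names are given for points more than 2 log2 units off the line or above 5.5 on an axis. Cd34, Ecscr and Gpihbp1 lie at the lower right of the WT panel, while Fli1 and Rasip1 lie above its line, and most points of the Rif1_KO panel lie above the line.

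The Rif1_KO libraries shared the order of the genes more closely than the WT libraries did. Across the 34 genes the rank correlation of CPM was 0.79 between Rif1_KO 1 and Rif1_KO 2 and 0.29 between WT 1 and WT 2, with 0.36 to 0.55 between libraries of different labels. Over all 15466 tested genes the same 2 values were 0.83 and 0.61, and those between labels were 0.64 to 0.72. Genes are not independent replicates, and the points of a pair of libraries share depth and preparation, so these values are descriptions only. Per kilobase of exon, Cldn5, Ramp2 and Gpihbp1 made up 44.8% of the summed level in WT 1, and Cldn5, Ramp2 and Pecam1 made up 60.2% in WT 2. In Rif1_KO 1 the leading genes were Ramp2, Emcn and Icam2 (54.4%), and in Rif1_KO 2 they were Ramp2, Emcn and Cldn5 (33.5%). Cldn5 thus led both WT libraries, at 53.8 and 34.5 CPM per kilobase, and stood at 0.426 and 10.7 in the Rif1_KO libraries. The place of Ramp2 and these percentages are uncertain, because 33.4% of its exon length is shared with Vps25.

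**Figure D4:**
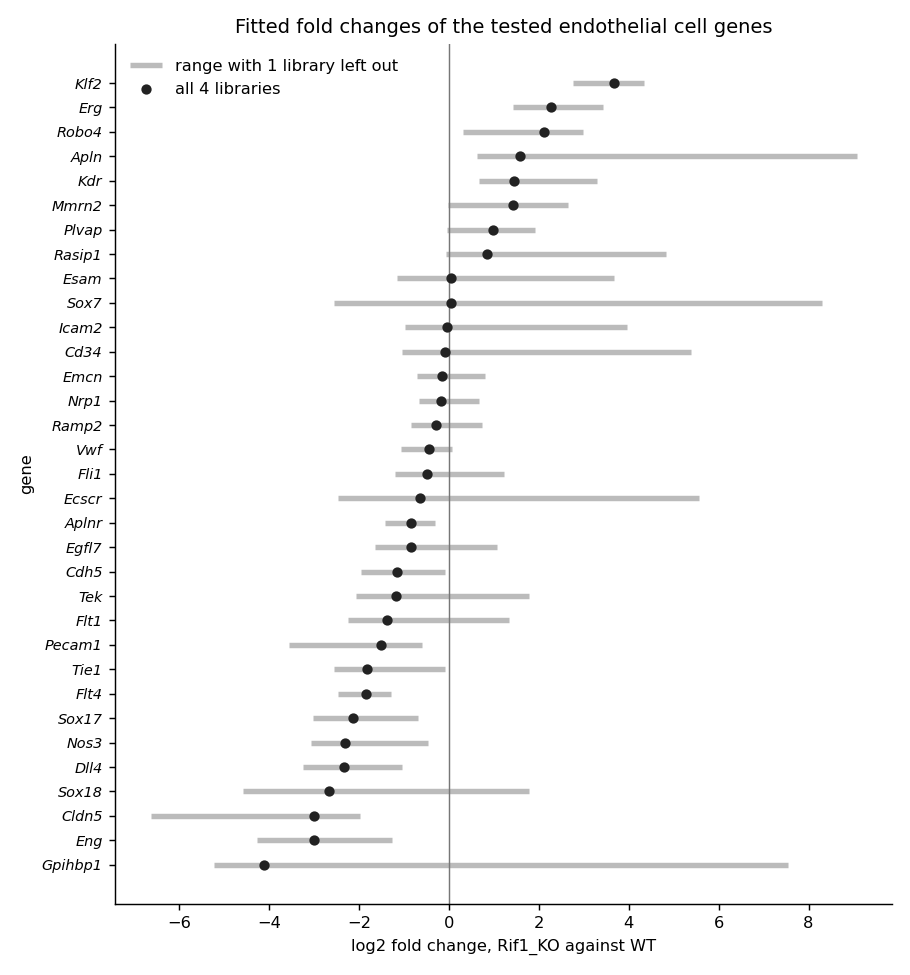
Fitted log2 fold change of Rif1_KO against WT for the 33 tested genes (points) and the range of the fits with 1 library left out (grey bars); those fits take the spread from the complete pair alone. The bars of 18 genes cross 0, and the longest, for Gpihbp1, Sox7 and Apln, include fits in which the remaining WT library had 0 counts, where the value depends on the prior count.

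A wider list of 42 vessel signalling genes gave 0 calls among 38 tested (edgeR adjusted p under 0.05), where 2 genes had an unadjusted p under 0.05, both higher. Over all tested genes 5.35% were higher at that p. The median log2 fold change of the list was 0.09, against -0.11 for all tested genes. Vegfd, a ligand of Flt4, had 0.0921 and 0.43 CPM in WT 1 and WT 2, from 1 and 4 counts, and 2.26 and 13.1 CPM in Rif1_KO 1 and Rif1_KO 2 (edgeR adjusted p = 0.571). Sema3e, a guidance ligand of vessels, had 1.11 and 0.537 CPM against 12.1 and 5.46 CPM (edgeR adjusted p = 0.592). Ackr3, a scavenger receptor for the chemokine CXCL12, was lower under the label Rif1_KO, at 13.9 and 24.5 CPM against 0.678 and 3.18 CPM (edgeR adjusted p = 0.611). Pathway partners of Dll4 chosen after their values were seen were split. The receptors Notch1 (17 and 5.91 CPM against 2.94 and 1.85 CPM) and Notch4 (3.32 and 1.72 CPM against 0.829 and 0.9 CPM) were lower under the label Rif1_KO. The ligand Jag1 (12.2 and 1.93 CPM against 52.1 and 31.7 CPM) and the factor Rbpj (4.61 and 9.67 CPM against 22.1 and 23 CPM) were higher. Their pairs did not overlap, and none was called. Of all tested genes 21% were higher and 18.4% lower without overlap. For Jag2, Dll1, Hey1, Hey2, Heyl and Hes1, Notch pathway genes of the same list, the pairs overlapped.

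A list of 48 further genes of endothelium also gave 0 calls among 38 tested, where 4 genes had an unadjusted p under 0.05, 3 of them higher and 1 lower. Over all tested genes 8.41% reached that p. The median log2 fold change of the list was -0.17, against -0.11 for all tested genes. Aqp1, a water channel of vessels and red cells, had 0.276 and 0.215 CPM in WT 1 and WT 2, from 3 and 2 counts, and 5.8 and 4.03 CPM in Rif1_KO 1 and Rif1_KO 2. Thbd, the endothelial thrombin receptor thrombomodulin, had 0.829 and 0.322 CPM against 14.9 and 18.1 CPM. Nr2f2, a factor of venous endothelium and of gonadal stroma, had 215 and 162 CPM against 476 and 268 CPM. Their edgeR adjusted p was 0.571, 0.571 and 0.577. The gene on the lower side, named after its values were seen, was Lyl1, a transcription factor of blood and endothelium, at 22.1 and 2.15 CPM against 0.753 and 0.106 CPM (log2 fold change -4.81, edgeR adjusted p = 0.583). Adgrl4, an adhesion receptor of endothelium chosen after its values were seen, stood at 0.184 CPM in WT 1 and 69.3 CPM in WT 2, the reverse of Cd34 and Gpihbp1. Summed over the list, the levels were 1010, 706, 936 and 1130 CPM in WT 1, WT 2, Rif1_KO 1 and Rif1_KO 2, a narrower range than that of the 34 genes.

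Several of the 34 genes are shared with blood cells, so the markers of those cells were read in the same libraries. The 8 endothelial markers taken as defining (Pecam1, Cdh5, Kdr, Tie1, Cldn5, Esam, Emcn and Erg) summed to 288 and 157 CPM in the WT pair and 76.0 and 172 CPM in the Rif1_KO pair, with none at 0 in any library. Leukocyte markers were near the limit: 7 of them summed to 3.22, 20.6, 7.01 and 8.1 CPM, Tyrobp was at 0 in both WT libraries, and of the 20.6 CPM in WT 2 the receptor Csf1r gave 16.9 CPM. Megakaryocyte markers (5 genes) summed to 1.32 to 13.1 CPM, the highest being in Rif1_KO 1, where Pf4 had 7.91 CPM. The endothelial sum was highest in WT 1, and these 2 blood sums were highest in other libraries. Erythroid markers were also highest in WT 1, at 137000 and 112000 CPM in the WT pair and 9780 and 4260 CPM in the Rif1_KO pair. How far blood cells contributed to the endothelial sum was not tested. WT 2, where Fli1 and Pecam1 were highest, was also highest for the leukocyte sum. It was highest for the germ cell sum too, at 429 CPM against 12.4 to 34.6 CPM in the other libraries. The part of leukocytes and of germ cells in the Fli1 and Pecam1 values was not tested.

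Cells that surround vessels differed from the endothelial genes in their order. Mural cell markers (6 genes, of pericytes and vascular smooth muscle) summed to 38.1 and 10.9 CPM in the WT pair and 71.2 and 92.7 CPM in the Rif1_KO pair, without overlap. In the Rif1_KO pair, but not in the WT pair, this sum was mostly that of Rgs5. Rgs5 had 11.3 and 0.752 CPM in the WT pair and 52.5 and 64.1 CPM in the Rif1_KO pair. The mural genes did not move together: of the 10 tested in the full list 5 had fitted values above 0 and 5 below. The pairs did not overlap for 2 that were higher (21% of all tested genes were) and 3 that were lower (18.4% of all tested genes were). Acta2 had 19.8 and 0 CPM against 16.4 and 21.8 CPM. Among genes named after their values were seen, Myh11, a smooth muscle myosin, had 18.1 and 5.37 CPM against 1.58 and 0.636 CPM, and Notch3, a receptor of mural cells, 2.49 and 5.48 CPM against 0.678 and 2.12 CPM. Stromal markers (5 genes) summed to 305 and 230 CPM against 1070 and 944 CPM, also without overlap, with Col1a1 at 46.1 and 87.0 CPM against 385 and 301 CPM. Supporting cell markers summed to 331 and 164 CPM against 255 and 296 CPM, and epithelial markers to 146 and 226 CPM against 40.6 and 110 CPM. In the full lists edgeR called 0 of 10 mural, 0 of 9 stromal, 0 of 8 supporting and 0 of 8 epithelial genes tested, and 2 of 15 erythroid genes. At an unadjusted p under 0.05, 1 mural, 5 stromal, 0 supporting and 1 germ cell gene were higher (5.35% of all tested genes were), and 11 erythroid, 3 germ cell, 1 epithelial and 1 dissociation gene were lower (3.05% were). The part of these differences in makeup in the endothelial values was not tested.

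**Figure D5:**
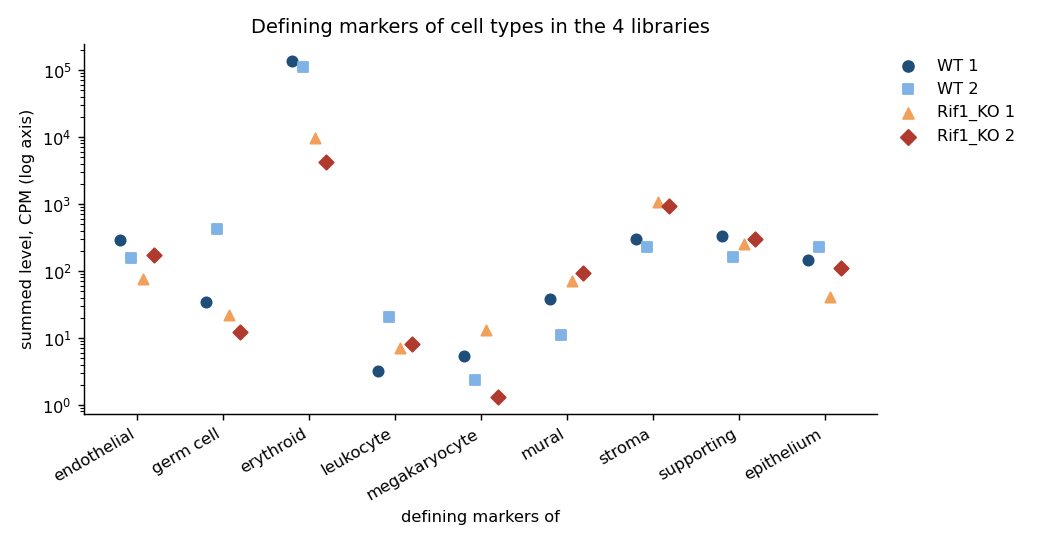
Summed level of the defining markers of 9 cell types in each library, in CPM on a log axis; each point is 1 library. Endothelial markers lie between 76.0 and 288 CPM with the labels overlapping, erythroid markers are higher in both WT libraries, and stromal markers are higher in both Rif1_KO libraries; the mural sum is too, of which Rgs5 gave 52.5 and 64.1 CPM.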

How the data were processed

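Whole-number counts per gene for 4 libraries were deposited by the authors in 1 table; the other column used, exon length in bases, comes from the same table, per the file headers. The submitters' processing notes name HISAT2, Trim Galore, SAMtools, FastQC and featureCounts, with mm10 as the build. Per the file headers, featureCounts 1.6.2 counted read pairs on GENCODE M17 at a mapping quality of at least 30, for every overlapping gene and with no strand option. Groups and replicate numbers came from the sample titles.

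Genes passing edgeR's filterByExpr (minimum count 10) numbered 15466. They were tested with edgeR 4.0.16 in R 4.3.3 (robust quasi-likelihood, TMM, Benjamini-Hochberg, threshold 0.05, no covariate). CPM use the TMM-scaled total of the tested genes; the TMM factors were 0.856, 0.8, 1.107 and 1.319 for WT 1, WT 2, Rif1_KO 1 and Rif1_KO 2. SE is the log2 fold change over the square root of F. DESeq2 1.42.0, limma-voom (limma 3.58.1), other factors and filters, a replicate block and leaving out each library were the alternatives. The steps were tested on simulated counts. Replicates differed beyond sampling noise (chi-square per degree of freedom 107 for WT and 86.6 for Rif1_KO).

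The members and the other lists (12 lists, 232 entries, all found) were chosen with earlier results of these data known, and their counts are no independent support. Named are Rif1, the members, 3 genes of each vessel list, by smallest p, and the leading markers per kilobase of other cell types; exceptions are marked as chosen after their values were seen.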

Additional observations from a re-analysis of the deposited data

How the results depend on the processing

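No endothelial gene was called with RLE or upper-quartile factors, without the filter on low counts or with a stricter one (21 members left), with DESeq2, with limma-voom or without either Rif1_KO library. Leaving out WT 1 or WT 2 gave 1 and 3 calls, so the range over libraries left out was 0 to 3. The median log2 fold change of the members, -0.49, was -0.57 to -0.09 in the settings with all libraries, and -1.05 to 0.81 with 1 left out; it was 0.81 without WT 1. That of all tested genes was -0.111, and -0.195 with RLE and 0.164 with upper-quartile factors, so the members' values move with the scaling as well. Over all genes edgeR called 2, against 0 with upper-quartile factors, 0 with the stricter filter, 54 without a filter, 521 with DESeq2 and 5 to 1345 with a library left out, the last being without WT 1 and 890 without WT 2. The replicate block gave 7 calls over all genes and 0 of the members, with a member median of -0.09. Deviations from the label means had a correlation of -0.023 between libraries with the same number. With 2 libraries a label the deviations mirror each other, so this is 1 value. It cannot show whether libraries with the same number share a batch.

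Of 33 members 18 changed sign in some setting, 8 of them also with all libraries kept. With RLE factors and with DESeq2 Esam was at -0.04 and Sox7 at -0.05. With upper-quartile factors Cd34, Emcn, Nrp1 and Icam2 were at 0.19, 0.11, 0.09 and 0.25, and without the filter at 0.17, 0.13, 0.12 and 0.21. With limma-voom Cd34, Fli1, Icam2 and Ecscr were at 2.03, 0.06, 1.45 and 1.5. With the replicate block Cd34, Icam2 and Ecscr were at 1.88, 1.38 and 1.14. With 1 library left out the ranges were -1.05 to 5.38 for Cd34, -1.63 to 1.08 for Egfl7, -4.58 to 1.79 for Sox18, -0.7 to 0.81 for Emcn, -2.07 to 1.78 for Tek, -2.24 to 1.35 for Flt1, -0.06 to 4.82 for Rasip1, -0.67 to 0.67 for Nrp1, -0.85 to 0.73 for Ramp2, -0.97 to 3.97 for Icam2, -5.23 to 7.55 for Gpihbp1, -2.47 to 5.56 for Ecscr, -1.2 to 1.22 for Fli1, -1.15 to 3.67 for Esam, -2.55 to 8.29 for Sox7, -1.07 to 0.08 for Vwf, -0.03 to 1.91 for Plvap and -0.01 to 2.66 for Mmrn2. The cause of these sign changes was not tested. The summed level kept WT 1 highest and Rif1_KO 2 next under each of 6 alternative scalings or member sets; with CPM of the deposited total WT 2 fell below Rif1_KO 1 (263 and 274 CPM), and in the others Rif1_KO 1 was lowest. With 2 libraries a label, and members such as Erg and Lyve1 at under 25 counts, small differences were not detectable at this depth. Large fitted values were not called either with all libraries kept. They were -4.1 (SE 2.53) for Gpihbp1, -2.99 (SE 1.39) for Cldn5 and 3.68 (SE 1.41) for Klf2. The absence of calls therefore leaves large differences undecided as well. Fits without WT 1 (Gpihbp1 and Sox7) or without WT 2 (Apln, at 9.08) leave the WT label at 0 counts, and their fitted values are no bounds.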
